A study of Mus musculus with 12 samples.

Results

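The 10 genes described here encode proteins with which muscle precursor cells recognise each other, adhere, merge their membranes and repair them. They were chosen by name, with earlier results of these data known, and matched by symbol to the Ensembl gene identifiers of the expression tables. There they are 10 of 48795 listed genes. All 10 passed the filter on low counts, which kept 14838 genes for testing. The expression data came from C2C12, an immortalised mouse myoblast line that fuses into myotubes when serum is withdrawn. By the protocols the cells were differentiated to myotubes for 5 days, although the cell type field of the labels reads myoblasts. Vehicle cultures received 0.02% DMSO, the solvent of gRc, for 24 h, gRc cultures received 10 µM ginsenoside Rc (gRc, a saponin of ginseng) for 24 h, H2O2 cultures received vehicle for 18 h and then 0.25 mM hydrogen peroxide for 6 h, and gRc + H2O2 cultures received 10 µM gRc for 18 h before the same peroxide treatment. For the latter group another field of the labels gives the gRc pretreatment as 24 h. Each group comprised 3 libraries, 12 in all, from a single cell line. The labels do not say whether the 3 came from separate cultures, and a p-value here thus covers only the variation among libraries, part of which may be technical.

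Fusion of myoblasts starts with recognition at the cell surface. Cadherins and immunoglobulin-type receptors, among them M-cadherin and the coreceptors Cdon, Boc and neogenin, bring the cells into contact and signal to the myogenic programme. The muscle-specific membrane protein myomaker, encoded by Mymk, then drives the mixing of the outer membrane leaflets, and the ferlins myoferlin and dysferlin act in membrane fusion and in the resealing of wounded muscle membranes. Integrin alpha7, encoded by Itga7, ties the finished fibre to laminin.

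The libraries held 19274762 to 31409066 assigned fragments. Vehicle replicate 1 stood at -68.6 on the first principal component of all tested genes, whereas vehicle replicate 3 and gRc replicate 3 stood at 82.3 and 84.2, and the other 9 libraries lay between -44.9 and 22.8. The log2 level of GC-poor over GC-rich genes was -0.93 in vehicle replicate 1 and 0.43 and 0.53 in the latter 2 libraries, but it was also 0.44 in gRc + H2O2 replicate 2, which stood at 22.8 on that axis. Results on the 10 genes that changed in call or direction without the 3 libraries standing apart are given both ways. That fit leaves only replicate 2 in vehicle, so for comparisons that use vehicle only its log2 values are given. The myotube identity of the cultures was visible in all groups: 8 of 8 myotube markers passed the filter, their summed level ranged from 14491 to 17201 CPM in vehicle and from 12491 to 15482 CPM in H2O2, and none passed the test with H2O2. CPM are counts relative to library size, scaled by the normalization factor of each library. Among 6 markers of undifferentiated or cycling myoblasts, the sum was 189 to 278 CPM in vehicle and 168 to 190.4 CPM in H2O2. Of these 1 fell, namely Pax7, which is not a cell cycle gene, from 19.6 ± 4.33 to 8.13 ± 0.393 CPM (adjusted p = 0.00352). The cell cycle genes Mki67, Top2a, Cdk1 and Ccnb1 did not pass. A count of 1 in 6 is near the 15.7% of all tested genes that passed in this comparison. The sum of 6 fibroblast markers reached 19672 CPM in 1 vehicle library against 2537 CPM in the lowest. Most of it came from the collagen genes Col1a1 and Col1a2, with vehicle maxima of 9557 and 9995 CPM. The vehicle maxima of Dcn, Pdgfra and Lum were 228, 22.9 and 0.927 CPM, and Thy1 was at 0 in vehicle. None of the 5 fibroblast markers that could be tested passed. The part of these values in the results below was not tested. In bulk RNA, fewer cells of a type and less RNA per cell cannot be told apart.

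To compare the genes with each other, the deposited TPM, which are corrected for transcript length, were used. In vehicle, Mymk and Itga7 were the most abundant, at 692 ± 343 and 656 ± 227 TPM (SD, n = 3). The cadherin Cdh15 and the neural cell adhesion molecule Ncam1 followed at 278 ± 57.5 and 276 ± 192 TPM. Cdon stood at 114 ± 17.5, Myof at 81.7 ± 20.6, Cdh2 at 58.4 ± 22.7 and Dysf at 32.6 ± 3.46 TPM. The lowest were Neo1 at 19.7 ± 3.22 and Boc at 3.4 ± 1.23 TPM, so that within the coreceptor family Cdon was the most abundant member and Boc the least. Neighbours in this order were mostly not separated: only Itga7 over Cdh15, Dysf over Neo1 and Neo1 over Boc differed without overlap of the 3 values.

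**Figure D1:**
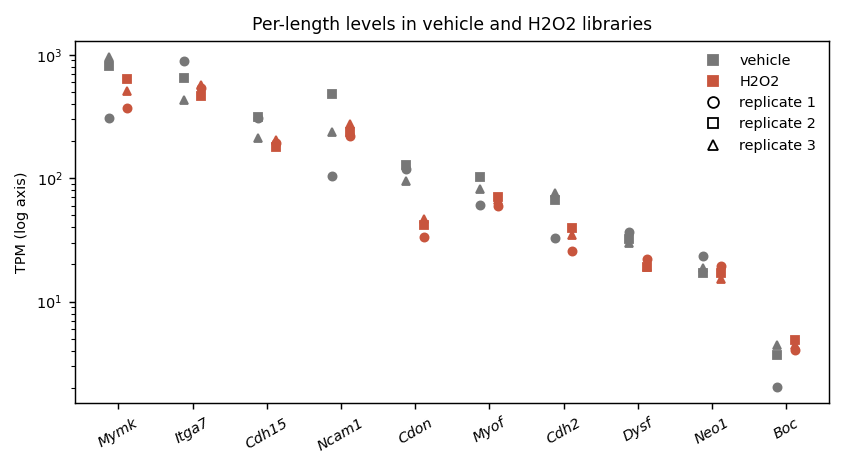
Deposited TPM (log axis) of the 10 genes in the 3 vehicle and 3 H2O2 libraries, 1 point per library with a marker shape for each replicate number. The genes are ordered by their mean in vehicle, from Mymk at 692 TPM to Boc at 3.4 TPM, and Cdon is the gene whose H2O2 points lie farthest below its vehicle points.

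To evaluate the response to oxidative stress, the H2O2 libraries were compared with vehicle. By edgeR's quasi-likelihood test with Benjamini-Hochberg adjustment over all tested genes, 2 of the 10 genes fell, 0 rose and 8 did not pass the threshold of 0.05. Of all tested genes, 15.7% passed in either direction, 7.84% lower and 7.81% higher, which is the background against which the 2 genes are read. The median log2 fold change of the 10 genes was -0.34, beside -0.06 for all tested genes. The 3 libraries of each group did not overlap for 3 of the 10 genes, against 31.1% of all tested genes.

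Cdon, a receptor of the immunoglobulin superfamily that binds cadherins at contact sites and acts as a hedgehog coreceptor, fell the most. Its level was 334, 409.8 and 457 CPM in the vehicle libraries and 123, 142 and 136 CPM in the H2O2 libraries. It was 363, 373 and 508 CPM with gRc alone and 144, 142 and 129 CPM with gRc + H2O2. Every library with H2O2 was thus below every library without it, and the 6 libraries with H2O2 lay within a narrow range. Such a separation of all libraries with H2O2 from all without it was found for 3 of the 10 genes, also Dysf and Cdh15. Its share over all genes is not given here. The fall from vehicle to H2O2 was 2.99-fold (log2 fold change -1.58 ± 0.17 SE, 95% interval -1.96 to -1.2, adjusted p = 0.000289). It remained past the threshold in all 12 alternative analyses, with log2 values from -1.63 to -1.46, and whichever single library was left out.

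Cdon lies on chromosome 9 (GRCm38, 35421128 to 35507652, plus strand). The RefSeq promoter table holds 1 window for it, around a start site inside the gene. The stretch of this window before the exon, chr9:35451826-35452044 on the plus strand, is intronic for the longer annotated transcripts. It is shown because Cdon had the largest change:

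Cdon: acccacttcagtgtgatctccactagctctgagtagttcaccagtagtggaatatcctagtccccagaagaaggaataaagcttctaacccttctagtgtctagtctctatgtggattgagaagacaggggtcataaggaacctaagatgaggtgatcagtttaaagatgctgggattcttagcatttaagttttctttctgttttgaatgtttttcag

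The related coreceptors did not pass the test. Boc, which pairs with Cdon, was at 6.38, 9.99 and 13.4 CPM in vehicle and at 12.6, 14.1 and 13.8 CPM in H2O2. These ranges overlapped, and the log2 difference of 0.44 ± 0.28 had the opposite sign to that of Cdon (interval -0.16 to 1.05, adjusted p = 0.318). Neo1, which encodes the netrin and repulsive guidance molecule receptor neogenin, was at 123, 78.7 and 95.9 CPM in vehicle and at 103, 83.5 and 79.9 CPM in H2O2 (log2 fold change -0.16 ± 0.19, interval -0.57 to 0.26, adjusted p = 0.628). Without the 3 libraries that stood apart, the Neo1 value turned to 0.16. The intervals of both genes lay entirely above that of Cdon.

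Dysf, the membrane repair gene whose loss causes limb-girdle muscular dystrophy in humans, was the other gene that fell. The vehicle libraries held 164, 127 and 109 CPM and the H2O2 libraries 98, 77 and 80.7 CPM. The groups did not overlap, although the lowest vehicle library was close to the highest H2O2 library. The fall was 1.56-fold (log2 fold change -0.65 ± 0.17, interval -1.02 to -0.27, adjusted p = 0.0277). This call was less secure than that of Cdon: the adjusted p was 0.0561 without vehicle replicate 1, 0.0524 without vehicle replicate 2, 0.11 without H2O2 replicate 2 and 0.106 without H2O2 replicate 3. It was likewise 0.116 when only these 6 libraries were fitted. Without the 3 libraries that stood apart the log2 fold change of Dysf was -0.58. Its relative Myof, which encodes myoferlin, was at 307, 451 and 403 CPM in vehicle and at 301, 331 and 333 CPM in H2O2, with overlapping ranges (log2 fold change -0.27 ± 0.15, adjusted p = 0.27).

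Dysf lies on chromosome 6 (84008590 to 84211060, plus strand) and has 2 windows in the RefSeq table, 1 at the start of the gene and 1 inside it. The stretches before the first exon of each, chr6:84008348-84008589 and chr6:84019136-84019384, are shown as the counterpart of the Cdon stretch:

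Dysf at the gene start: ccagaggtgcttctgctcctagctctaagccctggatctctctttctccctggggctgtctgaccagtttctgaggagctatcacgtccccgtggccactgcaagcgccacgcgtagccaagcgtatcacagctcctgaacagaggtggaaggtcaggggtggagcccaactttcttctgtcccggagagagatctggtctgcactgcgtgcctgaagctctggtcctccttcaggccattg

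Dysf inside the gene: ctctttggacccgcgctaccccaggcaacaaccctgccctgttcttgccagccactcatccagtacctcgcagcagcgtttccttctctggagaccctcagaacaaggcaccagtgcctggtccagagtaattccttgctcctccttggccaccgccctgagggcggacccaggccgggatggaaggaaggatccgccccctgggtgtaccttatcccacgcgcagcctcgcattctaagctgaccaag

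No letters are capitalised in the 3 stretches because none held an E-box (CANNTG, read on both strands), the short motif to which myogenic transcription factors bind. Promoter windows, each 300 bases long from 250 before to 50 after a RefSeq start site (GRCm38.p6), were found for 5 of the 10 genes, Cdon, Neo1, Cdh15, Myof and Dysf, with 6 windows in all. An E-box was present in 72.3% of the 32851 windows of the table. In the whole windows of Cdon, Neo1 and Myof and in the Dysf window at the gene start, none was found. The Cdon window lies inside the gene, so the region before the annotated start of Cdon at 35421128 was not searched. The Dysf window inside the gene held 1, CAACTG, starting 22 bases after the start site. The Cdh15 window held 4, namely CATATG at position -236, CATGTG at -135, CACGTG at -32 and CACTTG at -2 relative to the RefSeq start site, which lies 408 bases inside the start annotated by GENCODE, so that this window is exonic there and is not printed. None of the 6 windows held CAGCTG, an E-box type preferred by MyoD (a subset of CANNTG, present in 16.3% of windows), the AP-1 motif TGANTCA (7.8%) or the MEF2 core TATTTATA (1.7%). These are matches of letters in these windows and not measured binding.

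The cadherins lay lower in H2O2 without passing the threshold in edgeR. Cdh15, which encodes M-cadherin of the myoblast contact, was at 689, 619.9 and 457 CPM in vehicle and at 436, 374 and 454 CPM in H2O2. The groups did not overlap, though only by a few CPM, and the log2 fold change was -0.48 ± 0.19 (adjusted p = 0.123). Cdh2, the N-cadherin gene, was at 103, 190.1 and 217 CPM in vehicle and at 84.7, 119 and 111 CPM in H2O2 (log2 fold change -0.70 ± 0.26, adjusted p = 0.0981), and its groups overlapped through vehicle replicate 1. Cdh2 passed with DESeq2 (adjusted p = 0.0497), and with correction for GC content both Cdh2 (0.0311) and Cdh15 (0.0349) passed. Without vehicle replicate 1 the value for Cdh2 was -0.95, with an adjusted p of 0.00816. With the 3 libraries that stood apart left out, the values were -0.87 for Cdh2, -0.57 for Cdh15 and -0.50 for Myof. Only a single vehicle library then remained. Myof passed without vehicle replicate 1 alone (-0.40, adjusted p = 0.0431). 

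Mymk, Ncam1 and Itga7 were spread widely among the vehicle libraries, and their differences did not pass. Mymk was at 269, 621 and 784 CPM in vehicle and at 322, 520.2 and 435 CPM in H2O2. The vehicle range enclosed the H2O2 range, and the log2 fold change was -0.39 ± 0.34 (interval -1.15 to 0.37, adjusted p = 0.492). Mymx, which encodes the fusion partner of myomaker and was looked up after the values had been seen, went from 67.9 ± 9.49 to 51.8 ± 4.4 CPM (adjusted p = 0.101). Ncam1 was at 186, 394 and 471 CPM in vehicle and at 250.4, 302 and 301 CPM in H2O2 (log2 fold change -0.30 ± 0.30, adjusted p = 0.548), and its value turned to 0.08 with limma on TPM. Itga7 was at 2479, 1597 and 1163 CPM in vehicle and at 1521, 1222 and 1592 CPM in H2O2 (log2 fold change -0.27 ± 0.27, adjusted p = 0.551), and without vehicle replicate 1 its value turned to 0.07. Its beta chain partner Itgb1, also looked up afterwards, was at 1095 ± 203 and 1236 ± 116 CPM (adjusted p = 0.568).

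**Figure D2:**
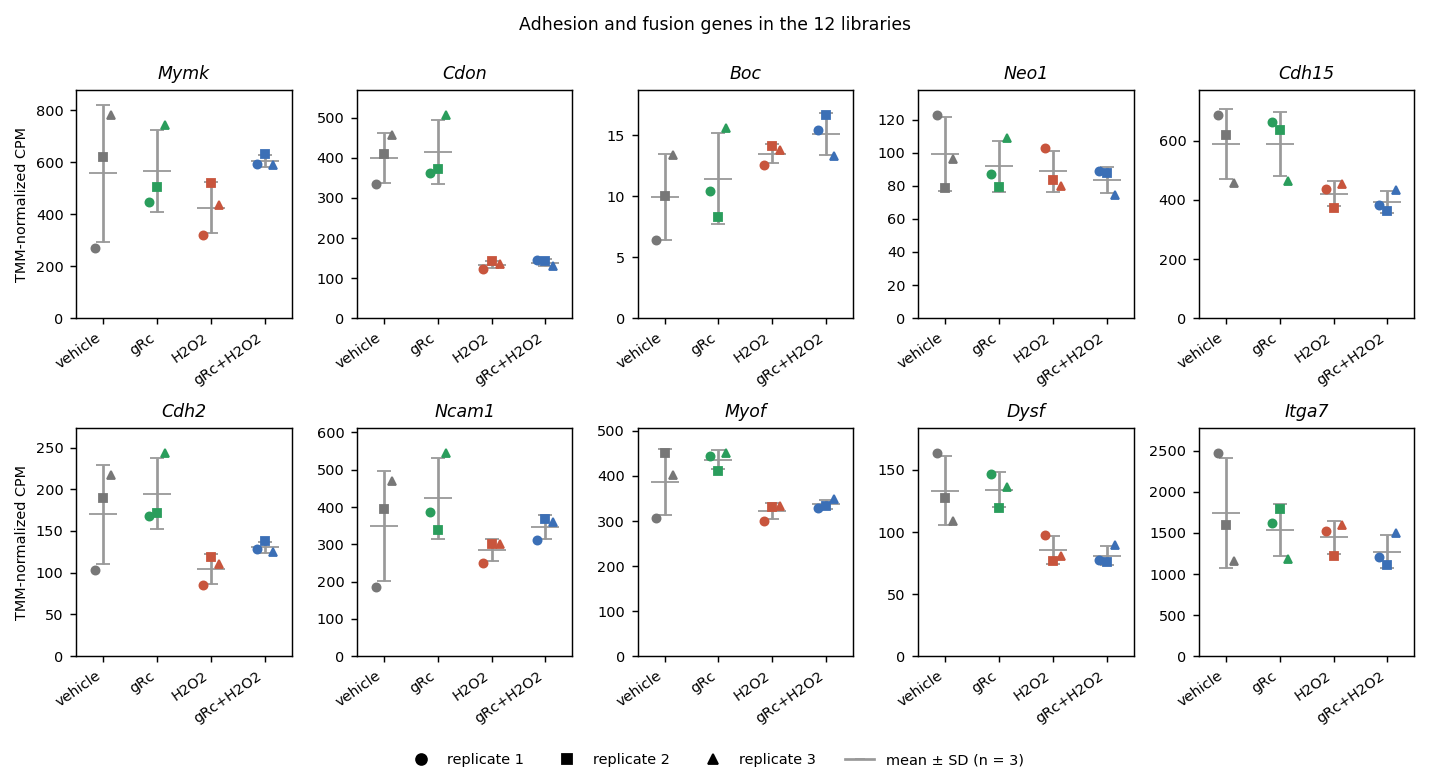
Normalized CPM (linear axes from 0) of each of the 10 genes in the 12 libraries, with 1 point per library, a marker shape for each replicate number and the mean ± SD of each group (n = 3). The 6 Cdon points with H2O2 lie between 123 and 144 CPM, below all 6 points without it, as also holds for the points of Dysf and Cdh15. The Mymk points of vehicle run from 269 to 784 CPM.

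The spread itself differed between groups. The median coefficient of variation of the 10 genes was 28.8% in vehicle, 20% in gRc, 11.8% in H2O2 and 9.15% in gRc + H2O2. Among all genes with an average log2 CPM above 2 it was 25.6%, 19.2%, 12% and 9.09%, so that the 10 genes followed the whole library set in this respect.

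To examine whether the peroxide response was seen again when gRc was present, gRc + H2O2 was compared with gRc. These 6 libraries have none in common with the comparison above, but the tests are not independent. Both use a spread estimated from all 12 libraries, and same-numbered gRc and vehicle libraries deviated together. Again 2 of the 10 genes fell and 0 rose, beside 15.7% of all genes passing in either direction, 8.15% lower and 7.57% higher. They were Cdon, 3.01-fold lower (log2 fold change -1.59 ± 0.17, adjusted p = 0.000275), and Dysf, 1.66-fold lower (-0.73 ± 0.17, adjusted p = 0.0162). Dysf stood at 147, 119 and 136 CPM in gRc and at 77.4, 75.6 and 89.7 CPM in gRc + H2O2, and here the groups were well apart. The Dysf call was lost without gRc replicate 1 (adjusted p = 0.0679), without gRc + H2O2 replicate 1 (0.0722) and without gRc + H2O2 replicate 2 (0.0768). Cdh15 was at 664, 636 and 464 CPM in gRc and 382, 361 and 433 CPM in gRc + H2O2, and its difference of -0.59 ± 0.19 did not pass (adjusted p = 0.0669). It passed without gRc replicate 3 (-0.75, adjusted p = 0.0296), with DESeq2 (0.0326) and with GC correction (0.0205). Cdh2, at -0.58 ± 0.26, passed only with GC correction and the replicate block together (adjusted p = 0.0246). The groups of 5 of the 10 genes did not overlap in this comparison, against 38.7% of all genes. Without the 3 libraries that stood apart, 5 of the 10 genes passed, while the calls over all genes also rose, from 2332 to 5153. The 5 were Cdon, Dysf, Cdh15 (-0.74, adjusted p = 0.00261), Myof (-0.35, adjusted p = 0.0298) and Boc, which was higher by 0.68 (adjusted p = 0.00803).

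The effect of H2O2 averaged over both gRc states, which reuses the same 12 libraries, had the smallest standard errors. In this contrast 5 of the 10 genes fell and none rose, while 31.0% of all tested genes passed, 16.4% lower and 14.6% higher. Cdon was at 136 ± 8.41 CPM in the 6 libraries with H2O2 and at 407 ± 64.9 CPM in the 6 without it (log2 fold change -1.58 ± 0.12, adjusted p = 8.68e-06). Dysf followed at 83.1 ± 8.9 against 134 ± 19.8 CPM (-0.69 ± 0.12, adjusted p = 0.00156). Both kept their call in every alternative and with any library left out. The cadherins joined them, Cdh2 with -0.64 ± 0.18 (adjusted p = 0.0219) and Cdh15 with -0.53 ± 0.14 (adjusted p = 0.0128). Myof passed narrowly at -0.32 ± 0.11 (adjusted p = 0.0428), and its call was lost in 11 of 12 analyses that left out 1 library, with adjusted p up to 0.0907. Boc, at 14.3 ± 1.47 with and 10.7 ± 3.34 CPM without H2O2, did not pass (0.42 ± 0.19, adjusted p = 0.125). It did so at 0.55 without vehicle replicate 3 (0.0387) or without gRc replicate 3 (0.0405). Its value was also 0.55 without the 3 libraries that stood apart. Ncam1, at -0.29 ± 0.21, passed only without vehicle replicate 1 (-0.44, adjusted p = 0.0289).

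The annotation touches the value of Cdh15. The predicted gene Gm20388, a locus that spans Cdh15 on the same strand, received 0 to 68.7 CPM, and it stood at 0 in vehicle replicate 3 and gRc replicate 3 only. When Gm20388 was added to Cdh15, an alternative chosen after seeing the data, the sums were 728, 667 and 457 CPM in vehicle and 474, 408 and 521 CPM in H2O2, and these groups overlapped. The averaged effect on Cdh15 was then -0.44, with an adjusted p of 0.0517, so that its call depends on whether Gm20388 is counted with it. Whether Cdh15 and Gm20388 share fragments was not tested. The other overlapping genes with values stayed at or below 0.979 CPM in every library, and Gm47271, which is antisense to Neo1, was not analysed here.

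To assess whether gRc altered these genes, gRc + H2O2 was compared with H2O2. None of the 10 passed the test in edgeR, nor did any of the 14838 genes. Of these, 122 (0.822%) had an unadjusted p under 0.05, a smaller share than the 0.05 that p-values give without any difference. The test was thus conservative here, and why was not tested. Its spread was estimated over all 12 libraries, and vehicle and gRc libraries varied more than those with H2O2. With only the compared groups fitted, 0 genes passed as well. DESeq2 called 2 genes in all and none of the 10. Cdon differed by 0.04 ± 0.17 (interval -0.33 to 0.42) and Dysf by -0.07 ± 0.17 (interval -0.45 to 0.3). At 138 ± 8.07 and 80.9 ± 7.66 CPM, both stayed below all 3 vehicle libraries. Mymk was at 595, 631 and 588 CPM in gRc + H2O2, above its 3 H2O2 libraries and within the range of vehicle. The difference of 0.50 ± 0.34 had an interval from -0.25 to 1.26 and an unadjusted p of 0.17. Cdh2 (129, 138 and 125 CPM) and Ncam1 (311, 369 and 359.7 CPM) were likewise above all H2O2 libraries, by 0.32 ± 0.26 and 0.28 ± 0.30. These 3 of 10 genes without overlap compare with 15.3% of all tested genes, and neither the 3 differences nor those of the other 7 passed.

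Without peroxide, no difference between gRc and vehicle passed for the 10 genes in edgeR. There 0 of all genes passed and 74 (0.499%) had an unadjusted p under 0.05, and DESeq2 also called 0. The log2 differences lay between -0.19 for Itga7 and 0.27 for Ncam1, and all groups overlapped, against 1.61% of all genes without overlap. The effect of gRc averaged over H2O2 gave 0 calls in both tools, with 127 genes (0.856%) at an unadjusted p under 0.05 in edgeR. The interaction, which asks whether gRc changed the response to H2O2, passed for none of the 10. In edgeR, 87 of all genes (0.586%) had an unadjusted p under 0.05 and none passed after adjustment. DESeq2 called 1 gene, which is not among the 10. The shares under 0.05 were thus again smaller than p-values give without any difference. For Cdon the interaction was -0.01 (interval -0.54 to 0.52), for Dysf -0.08 (interval -0.62 to 0.45) and for Mymk 0.48 (interval -0.58 to 1.55). With 3 libraries a group, differences of the size of these intervals were not detectable.

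**Figure D3:**
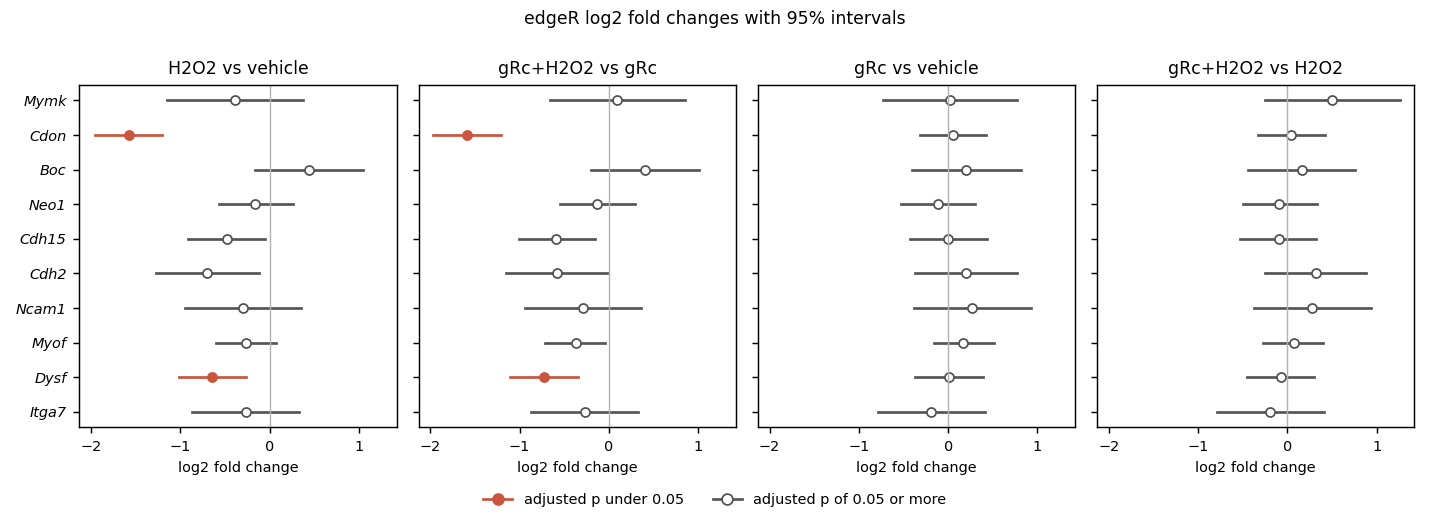
edgeR log2 fold changes of the 10 genes in 4 comparisons with 95% intervals (12 libraries, 3 per group); filled points had an adjusted p under 0.05 over all 14838 genes. Cdon and Dysf are filled in both comparisons of H2O2 with its control, at -1.58 and -0.65 without gRc and at -1.59 and -0.73 with it, and no point is filled in the 2 comparisons of gRc.

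The deposited tables also give, per gene and library, a transcript length weighted by the abundance of the isoforms. It was constant in all 12 libraries for Mymk, Neo1, Cdh15, Myof and Itga7, and for the remaining 5 genes it was tested with limma on the log2 scale. No length difference between H2O2 and vehicle passed among those 5, beside 0.0190% of 10548 genes with a varying length and 414 of these at an unadjusted p under 0.05. Ncam1 varied the most on that scale: its weighted length was 2580, 1434 and 2991 bases in vehicle, 1344, 1627 and 3068 bases in gRc, 1711, 2047 and 1663 bases in H2O2, and 1344, 1101 and 1019 bases in gRc + H2O2. Which transcripts of Ncam1 these lengths stand for was not examined. The gRc + H2O2 libraries were the shortest as a group and lay below all H2O2 libraries. In a comparison added after seeing these values, the log2 difference between the 2 groups was -0.65 ± 0.35, with an unadjusted p of 0.0941 by limma. It did not pass after adjustment, and neither did any of the 10548 genes. The share of all genes whose lengths did not overlap between these groups was not determined. The length enters the TPM: Ncam1 stood at 524 ± 111 TPM in gRc + H2O2 against 244 ± 28.8 TPM in H2O2, whereas its CPM were 347 ± 30.8 and 284 ± 29.5. For Cdon the length ran from 3931 to 7023 bases with overlapping groups, and its fall was seen on the TPM scale as well, from 114 ± 17.5 to 40.6 ± 6.88 TPM.

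**Figure D4:**
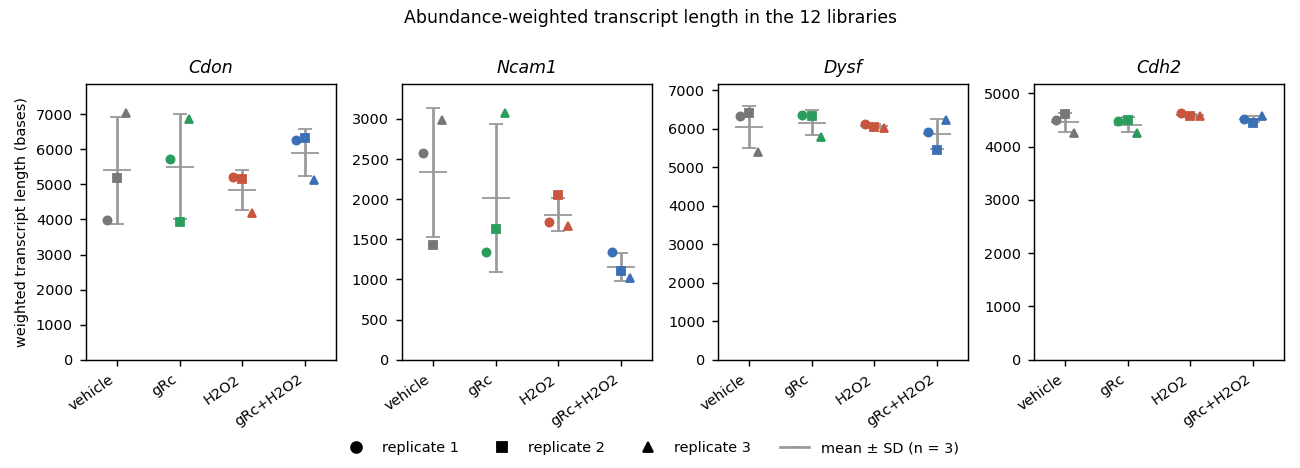
Abundance-weighted transcript length in bases (linear axes from 0) of Cdon, Ncam1, Dysf and Cdh2 in the 12 libraries, with the mean ± SD of each group (n = 3). The Ncam1 points of gRc + H2O2 lie between 1019 and 1344 bases, below the H2O2 points at 1663 to 2047 bases, a difference that did not pass the test. The lengths of Cdh2 stay between 4246 and 4622 bases.

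The genes with which these 10 act were examined as 6 lists in the comparison of H2O2 with vehicle. The lists were described by counts, with the background of 15.7% given above. They were drawn up with earlier results of these data known, so a count above that background is not a test. Of 35 tested genes of the fusion machinery, 7 fell and 0 rose, with a median log2 fold change of -0.17. The 4 with the smallest p were Kirrel3 (-1.18 ± 0.19, adjusted p = 0.00228), a nephrin-like adhesion receptor, the phospholipase gene Pld1 (-1.06 ± 0.19), the prostaglandin F receptor gene Ptgfr (-1.49 ± 0.30) and the chemokine gene Cxcl12 (-1.46 ± 0.32). Of 26 ligands and signalling partners of Cdon, Boc and Neo1, 6 fell and 0 rose (median -0.27). They included Map2k6, an activator of p38 kinase (-1.53 ± 0.27, from 1.18 to 0.407 CPM), the netrin receptor gene Unc5c (-1.55 ± 0.31), and the neogenin ligands Rgmb (-0.73 ± 0.16) and Hfe2 (-0.72 ± 0.16, adjusted p = 0.012).

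Cadherins, catenins and immunoglobulin-type adhesion partners moved in both directions, with 4 of 26 higher and 6 lower (median -0.20). Vcam1, an adhesion receptor for integrins, fell from 55.5 ± 3.78 to 29.9 ± 2.56 CPM (-0.89 ± 0.15, adjusted p = 0.00293), as did the receptor genes Gfra1 (-1.07 ± 0.19) and Fgfr4 (-1.91 ± 0.35), whereas the junction gene Nectin1 rose from 13.3 ± 3.34 to 31.6 ± 4.72 CPM (1.25 ± 0.21, adjusted p = 0.00314). Of 34 ferlins and partners in membrane repair, 1 rose and 3 fell (median -0.03). The muscle protease gene Capn3, whose product is found in a complex with dysferlin, fell (-0.67 ± 0.14, adjusted p = 0.00787), and so did the endocytic genes Ehd4 (-0.63 ± 0.15) and Ehd3 (-0.66 ± 0.17). Fer1l6, a ferlin gene close to 0 in vehicle (0.0353 ± 0.0357 CPM), was at 0.421 ± 0.116 CPM in H2O2 (adjusted p = 0.0214).

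Of 36 integrins and partners of integrin alpha7, 11 fell and 1 rose (median -0.34). Itgb6 fell from 23.7 ± 2.32 to 7.14 ± 0.741 CPM (-1.73 ± 0.22, adjusted p = 0.00062). Lama2, which encodes the laminin chain of the muscle basement membrane and a ligand of integrin alpha7, fell by 0.82 on the log2 scale (SE 0.14), and Itga3 and Itga10 fell by 1.05 and 0.85. Among 36 genes of differentiated muscle, 5 fell and 0 rose (median -0.37), among them the transcription factor gene Myf6 (-1.15 ± 0.28), the fetal acetylcholine receptor subunit gene Chrng (-0.47 ± 0.12), Neb, which encodes the thin filament protein nebulin (-1.03 ± 0.29), and the fast myosin gene Myh4 (-0.61 ± 0.18). Of the 24 partner genes named here, 8 kept their call in every alternative and with any library left out (Kirrel3, Pld1, Unc5c, Vcam1, Nectin1, Fgfr4, Lama2 and Itga10), and the other 16 lost it in at least 1 of these analyses. In the comparisons of gRc + H2O2 with H2O2 and of gRc with vehicle, 0 genes of any of the 6 lists passed.

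The genes whose levels followed those of Cdon and Dysf most closely were sought by the root mean square difference of mean-centred log2 CPM over the 12 libraries, among 10832 genes whose mean log2 CPM was 2 or more. For Cdon they were Ankrd44, Plxna2 and Rnf150, each at 0.13 beside a root mean square of 0.80 for Cdon itself. For Dysf they included Arhgef19 (0.10) and Tln2 (0.11), which encodes the integrin adaptor talin 2, beside 0.38 for Dysf itself. Between H2O2 and vehicle, whose libraries entered this choice, the log2 fold changes of the 3 genes near Cdon were -1.62, -1.40 and -1.56. Those of Arhgef19 and Tln2 were -0.77 and -0.59.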

How the data were processed

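Poly(A) RNA of 12 C2C12 libraries was sequenced as paired ends from a directional kit. Per the labels, the authors mapped trimmed reads to GRCm38 (STAR 2.7.3a) and estimated gene abundance (RSEM 1.3.3). The deposited expected counts are fragments assigned per gene without normalization, the deposited TPM are scaled to length and library by the authors, and the deposited lengths, in bases, are weighted by isoform. Whether counting used strand is not given in the sources used here. The deposited FPKM were not used.

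Expected counts were rounded. edgeR 4.0.16 (R 4.3.3; filterByExpr, TMM, quasi-likelihood F test, all 12 libraries, 1 mean per group) was the main test, with Benjamini-Hochberg adjustment over 14838 genes and a threshold of 0.05. Its biological coefficient of variation was 0.295. SE were derived from the log2 fold change and the F statistic, and intervals are 95%. Lengths were tested with limma 3.58.1. Alternatives were DESeq2 1.42.0, other scaling, filters, offsets, TPM (log2 with a pseudocount of 0.5), GC correction, a replicate block and left-out libraries. Scripts were tested on simulated data. Positions and promoters came from GENCODE and RefSeq.

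Same-numbered gRc and vehicle libraries deviated together (correlations 0.46, 0.271 and 0.86), from the data and not from the labels, and the block left that comparison at 0 calls. No 2 libraries of a group were duplicates. Members and lists were chosen with earlier results of these data known. Named were all 10 genes, from each list the 4 with the smallest p among those past the threshold in H2O2 against vehicle, and for each of the 10 genes past it there the 3 genes nearest in pattern, of which 1 is not reported here.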

Additional observations from a re-analysis of the deposited data

How the results depend on the processing

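Of the 10 genes, Cdon kept its call and direction in both H2O2 comparisons under every alternative. Between H2O2 and vehicle the 2 genes called became 4 with GC correction and 4 with GC correction and the replicate block (Cdon, Dysf, Cdh2 and Cdh15 in both). They became 1 with only the compared groups, and ranged from 1 to 3 when 1 library was left out. Between gRc + H2O2 and gRc the 2 became 4 with GC correction and the block and 5 without the 3 libraries that stood apart. With 1 library left out they ranged from 1 to 3. The averaged effect ranged from 4 to 6. Over all genes, H2O2 against vehicle gave 1480 calls with limma on TPM, 739 with only the compared groups and 1267 to 3108 with 1 library left out, beside 2323. gRc + H2O2 against gRc gave 1462 with limma on TPM, 5153 without the 3 libraries and 1186 to 2025 with 1 left out, beside 2332. The averaged effect gave 3691 to 5508 with 1 left out. DESeq2 called 2 genes in gRc + H2O2 against H2O2 and 1 in the interaction, beside 0. Calls on length, 2 in all, became 0 with only the compared groups, 1 with the replicate block, 1 at an average log2 CPM of at least 2 and 1 to 4 with 1 library left out. Neighbouring genes without overlap in vehicle, 3 in the report, were 2 over all 12 libraries, 2 on log2(TPM + 0.5) and 3 to 6 with 1 library left out. The cause of these changes was not tested.

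The replicate block alone left 2 of the 10 genes called in H2O2 against vehicle and in gRc + H2O2 against gRc, 5 in the averaged effect and 0 elsewhere. Outside gRc against vehicle the correlations of same-numbered libraries were mixed. They ran from -0.283 to 0.44 for H2O2 and vehicle and from -0.55 to 0.0206 for gRc + H2O2 and gRc. For gRc + H2O2 and H2O2 they were all positive, from 0.0802 to 0.402.

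Directions that turned were all of values that did not pass. For H2O2 against vehicle, Neo1 was 0.16 without the 3 libraries and Ncam1 0.08 with limma on TPM. For gRc + H2O2 against H2O2, Cdon was -0.24 with length offsets and -0.18 with limma on TPM, Cdh15 was 0.03 with GC correction and 0.03 with GC correction and the block, and Dysf was 0.05 with limma on TPM. For gRc + H2O2 against gRc, Ncam1 was 0.52 with length offsets and 0.49 with limma on TPM. In the averaged effect, Neo1 was 0.08 without the 3 libraries, and Ncam1 was 0.19 with length offsets and 0.28 with limma on TPM. With 1 library left out, values of H2O2 against vehicle ran from -0.3 to 0.03 for Neo1 and from -0.51 to 0.07 for Itga7; those of gRc + H2O2 against H2O2 from -0.02 to 0.08 for Cdon, -0.16 to 0.03 for Neo1 and -0.17 to 0.03 for Dysf; that of gRc + H2O2 against gRc from -0.05 to 0.33 for Mymk; and the averaged effect on Mymk from -0.31 to 0.01.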
